A study of Rattus norvegicus with 8 samples.

Results

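Amino acid transporters of the SLC1, SLC3, SLC6, SLC7, SLC36, SLC38 and SLC43 gene families were examined in kidney RNA from F344/NSlc rats, all females 10 weeks old, whose right kidney was taken. They were chosen by symbol: every array probe whose RefSeq accession named a gene of these 7 families was taken, which gave 68 probes for 56 genes out of 14400 named genes on the array. The samples came after a sham operation (4 samples) or a unilateral nephrectomy (4 samples), the surgical loss of a kidney after which the other enlarges, and carried no other labelled treatment. The comparison asks how transcripts in the residual kidney differ early after that loss. The design text dates the sampling to day 2 after surgery, whereas the source names date the sham kidneys to day 1 and the nephrectomized kidneys to day 2. If the source names hold, day and operation cannot be told apart.

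Each RNA sample was read on its own 1-colour Agilent array, so the values are fluorescence signals. They are given here on the log2 scale relative to the array's own 75th percentile signal, which was 388 to 643 units. Between 59.5% and 66.1% of the 41012 probes were well above background on an array. The 8 arrays lay on 2 slides with 2 sham and 2 nephrectomized arrays on each. Sham arrays always held positions 1 and 2 and nephrectomized arrays positions 3 and 4, so position and group cannot be told apart. All 10 listed proximal tubule markers and all 7 distal nephron markers were tested, as fits the labelled tissue. In the residual kidneys all 5 tested markers of dividing cells had higher estimates. Of these, 3 (Cdk1, Ccnb2 and Mcm6) reached a limma p below 0.05 after Benjamini-Hochberg adjustment. All 7 tested leukocyte markers had lower estimates, and 2 (S100a8 and S100a9) reached that limit. Of all features 1.04% reached it. The dividing-cell list averaged -2.62 to -2.12 on the sham arrays and -1.33 to 0.51 on the nephrectomized arrays.

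In the proximal tubule, filtered amino acids enter the epithelium through apical carriers of the brush border and leave it through basolateral exchangers. Several of these are pairs of a heavy chain, Slc3a1 (rBAT) or Slc3a2 (4F2hc), and a light chain of the SLC7 family. Dividing and growing cells rely on other members, among them Slc7a5 (LAT1), Slc1a5 (ASCT2) and the SNAT carriers of the SLC38 family, to feed protein synthesis, and some lysosomal members report amino acid supply to the growth regulator mTORC1.

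Of the 56 genes, 32 had a probe that cleared background on 4 or more arrays and were tested, and 24 were not. None of the 32 passed the threshold, a limma p below 0.05 after Benjamini-Hochberg adjustment over 20935 tested features. In all, 1.04% of features passed, so 0 of 32 lies near the background. At an unadjusted limma p under 0.05 there were 4 of 32 genes, or 12.5%, against 16.0% of all features. The sham and nephrectomized arrays did not overlap for 4 of 32 genes, again 12.5%, against 11.1% of all features. Estimated changes (nephrectomized minus sham, log2) were positive for 22 genes and negative for 10, with a median of 0.085 against 0.0089 over all features, and they ran from -0.37 for Slc43a1 to 0.41 for Slc7a10.

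The arrays bounded most of these changes closely. For 26 of the 32 genes limma's 95% interval lay inside a 1.5-fold change in either direction, and for 31 inside a 2-fold change. Of all features, 83.6% had an interval inside 1.5-fold. The 6 wider ones were Slc38a3, Slc3a1, Slc43a1, Slc7a10, Slc7a13 and Slc7a2, and the interval of Slc7a13 alone, from 0.403-fold to 2.36-fold, reached past 2-fold. Standard errors of the members had a median of 0.10, against 0.091 over all features.

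**Figure D1:**
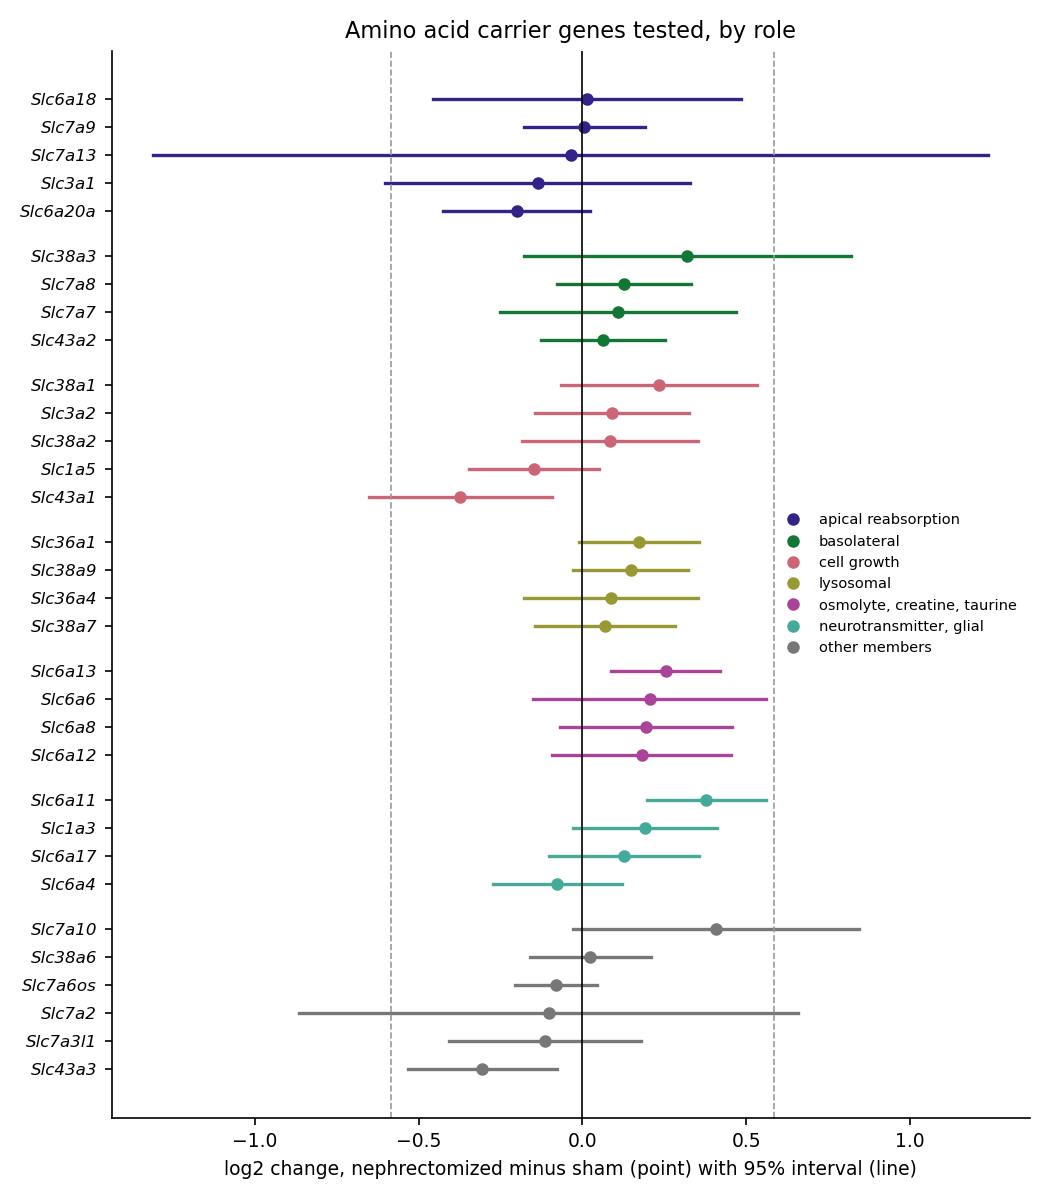
Log2 change from sham to nephrectomized kidneys for the 32 tested genes (points, x axis) with limma's 95% intervals (lines), grouped by role on the y axis; dashed lines mark a 1.5-fold change. The interval of Slc7a13 is the widest, and 26 of 32 intervals stay between the dashed lines.

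By family, the tested genes were 2 of 6 in SLC1, 2 of 2 in SLC3, 9 of 17 in SLC6, 8 of 15 in SLC7, 2 of 4 in SLC36, 6 of 9 in SLC38 and 3 of 3 in SLC43. No family held a gene past the threshold. By the brightest probe of each gene, all 6 tested SLC38 genes had positive estimates, between 0.024 and 0.32, with a median of 0.12. Other tested probes gave -0.11 for Slc38a2, and -0.13 and 0.036 for Slc38a6. The 9 SLC6 genes had a median of 0.18, with 7 positive. The SLC43 genes had a median of -0.31, with Slc43a1 and Slc43a3 negative and Slc43a2 at 0.062. The 8 SLC7 genes were split 4 and 4 around 0, with a median of -0.015. On the slides taken separately the SLC6 median was 0.27 on slide 1 and 0.0037 on slide 2, while that of SLC38 was 0.073 and 0.16.

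Apical reabsorption carriers showed no shared change after nephrectomy, but 3 of them differed widely between samples of the same group. Of 8 listed genes, 5 were tested, Slc36a2 was not above background on any array, and Slc1a1 and Slc6a19 were not analysed here because no probe matched their RefSeq accessions. None of the 5 passed, and their median change was -0.036, 0.044 on slide 1 and -0.24 on slide 2. It was -0.27 without sham replicate 3 and 0.029 without nephrectomized replicate 4.

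Slc3a1, the heavy chain of the cystine and dibasic amino acid transporter, read 6.74, 6.77, 6.26 and 7.01 in sham replicates 1 to 4. Its nephrectomized replicates read 6.77, 6.84, 6.57 and 6.07. The lowest value was in nephrectomized replicate 4 and the next lowest in sham replicate 3, and the groups overlapped. The change was -0.14 ± 0.20 (SE, n = 4 per group; limma adjusted p = 0.796).

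Slc7a9, the b0,+AT light chain that joins Slc3a1 in the same transporter, read 5.71, 5.60, 5.46 and 5.62 in sham kidneys. In nephrectomized kidneys it read 5.73, 5.44, 5.64 and 5.62. These groups overlapped almost completely, and the change was 0.0057 ± 0.081 (SE, n = 4 per group; limma adjusted p = 0.982). Its 95% interval, 0.883-fold to 1.14-fold, was among the narrower ones.

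Slc7a13 (AGT1), the other light chain known to pair with Slc3a1 and found in the late, straight part of the proximal tubule, was the most variable member. It read 4.15, 4.01, 3.09 and 4.82 in sham replicates 1 to 4 and 4.57, 4.91, 4.02 and 2.42 in nephrectomized replicates 1 to 4. The span of 2.48 log2 units was found within the groups, not between them, and the change was -0.036 ± 0.56 (SE, n = 4 per group; limma adjusted p = 0.984). Its SD over the 8 arrays, 0.86, ranked 118th among 10240 named features. In whole-kidney RNA, fewer cells of a type and less RNA per cell cannot be told apart.

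Slc6a18 (B0AT3), a glycine and neutral amino acid carrier, read 3.83, 3.62, 3.34 and 4.05 in sham kidneys. It read 4.04, 3.94, 3.68 and 3.23 in nephrectomized kidneys, with both low ends again in sham replicate 3 and nephrectomized replicate 4. Its change was 0.013 ± 0.20 (SE, n = 4 per group; limma adjusted p = 0.983).

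Slc6a20a, the proline and imino acid carrier, read 1.94, 1.76, 1.65 and 2.04 in sham kidneys and 1.72, 1.52, 1.75 and 1.59 in nephrectomized kidneys. Its groups overlapped, and its change was -0.20 ± 0.098 (SE, n = 4 per group; limma adjusted p = 0.360).

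**Figure D2:**
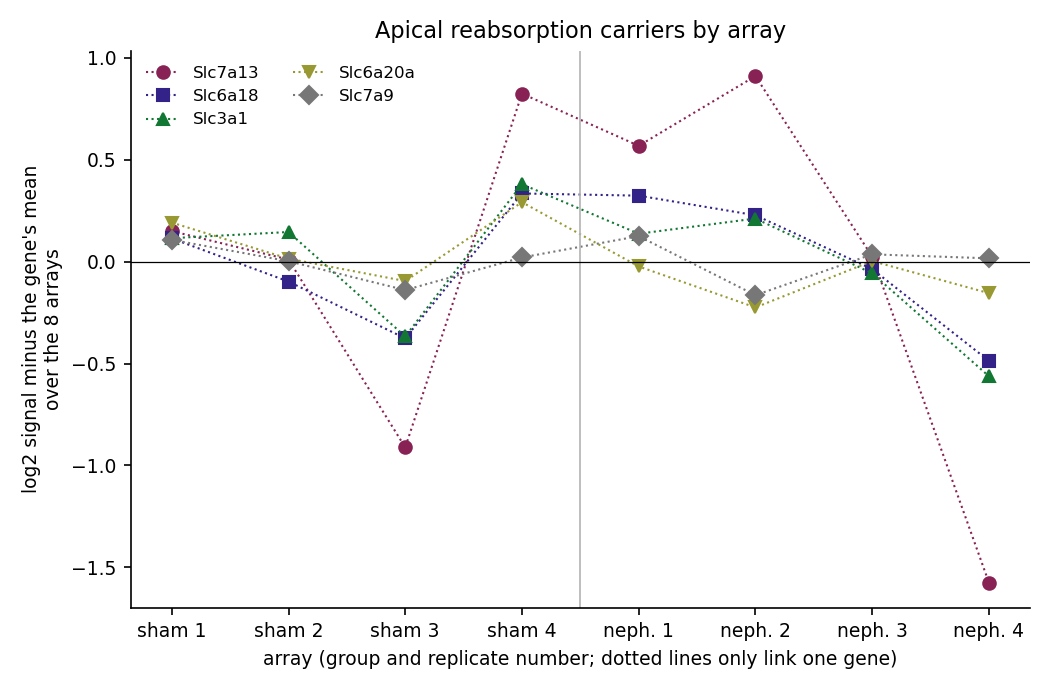
Log2 signal of 5 apical carriers in each array, minus the gene's mean over the 8 arrays (y axis); sham replicates 1 to 4 are on the left and nephrectomized replicates 1 to 4 on the right of the grey line. Slc7a13, Slc6a18 and Slc3a1 are lowest in nephrectomized replicate 4 and sham replicate 3, while Slc7a9 stays near 0.

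Slc7a13, Slc3a1 and Slc6a18 followed each other across the 8 samples, whereas r of Slc7a9 with these 3 lay between 0.091 and 0.29. Slc7a9 varied little, with an SD over the 8 arrays of 0.10, against 0.86, 0.32 and 0.31 for Slc7a13, Slc3a1 and Slc6a18. Its low r therefore rests on a small spread and does not show that it moved apart from them. The correlations were examined after the values had been seen, over the 10 pairs of the 5 carriers. Their two-sided exact permutation p-values were adjusted over the 10. Slc7a13 and Slc6a18 correlated at a Pearson r of 0.96 (exact permutation p = 0.000422, adjusted 0.00310) and a Spearman rho of 0.93 (p = 0.00223, adjusted 0.0223). Without sham replicate 3 and nephrectomized replicate 4, the arrays farthest from the median of Slc7a13, r was 0.87 over 6 arrays (exact permutation p = 0.0431). Slc7a13 and Slc3a1 correlated at 0.96 (exact permutation p = 0.000620, adjusted 0.00310) with a rho of 0.83 (p = 0.0154, adjusted 0.0726). Without the same 2 arrays their r was 0.74 (exact permutation p = 0.0597). Slc3a1 and Slc6a18 correlated at 0.93 (exact permutation p = 0.00141, adjusted 0.00471) with a rho of 0.81 (p = 0.0218, adjusted 0.0726), and at 0.66 without those arrays (exact permutation p = 0.144). Over the 6 remaining arrays r of Slc3a1 with either gene was positive, at a p above 0.05.

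For Slc7a9 against Slc7a13, r was 0.091 (exact permutation p = 0.851, adjusted 0.851) and rho 0.12 (p = 0.793, adjusted 0.881), and without the 2 arrays r was -0.46. For Slc7a9 against Slc3a1, its partner, r was 0.19 (exact permutation p = 0.690, adjusted 0.766) and rho -0.071 (p = 0.882, adjusted 0.882), and without the 2 arrays r was -0.26. With the group means removed, r was 0.98 for Slc7a13 and Slc3a1, 0.96 for Slc7a13 and Slc6a18, and 0.091 for Slc7a13 and Slc7a9. Either slide alone holds 4 arrays, as does either group, which is too few for a correlation.

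Some other transcripts moved with Slc7a13, and those named here were picked after their values were seen. Among 26 listed genes outside the families, Slc15a2 (PEPT2), a peptide carrier of the straight proximal tubule, came closest, at an r of 0.98 (exact permutation p = 9.92e-05, adjusted 0.00258) and a rho of 0.95 (p = 0.00114, adjusted 0.0297). Its r was 0.95 without the 2 farthest arrays. The brush border peptidase Anpep had an r of 0.93 (exact permutation p = 0.000744, adjusted 0.00967) and a rho of 0.86 (p = 0.0107, adjusted 0.0929), and an r of 0.70 without those arrays. Umod, made in the thick ascending limb, had an r of 0.90 (exact permutation p = 0.00208, adjusted 0.0181) and a rho of 0.79 (p = 0.0279, adjusted 0.121), and an r of 0.67 without them. By contrast r was -0.40 for Slc22a6 and -0.26 for Slc22a8, organic anion carriers of the proximal tubule, and -0.0070 for the collecting duct channel Aqp2, with adjusted exact permutation p-values of 0.673, 0.750 and 0.986. The 10 proximal markers averaged 4.53 to 4.76 in sham and 4.53 to 4.72 in nephrectomized kidneys, and the 7 distal markers 3.95 to 4.20 and 4.13 to 4.28. Nephrectomized replicate 4, lowest for Slc7a13, also had the lowest 75th percentile signal, 388, and the highest share of probes above background, 66.1%. Nephrectomized replicate 2, highest for Slc7a13, had the next lowest signal, 457, and the next highest share, 63.4%. Sham replicate 3, next lowest for Slc7a13, was at 460 and 62.4%, and sham replicate 4, next highest for it, at 562 and 61.6%. The part of segment makeup and of array signal in these relations was not tested.

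**Figure D3:**
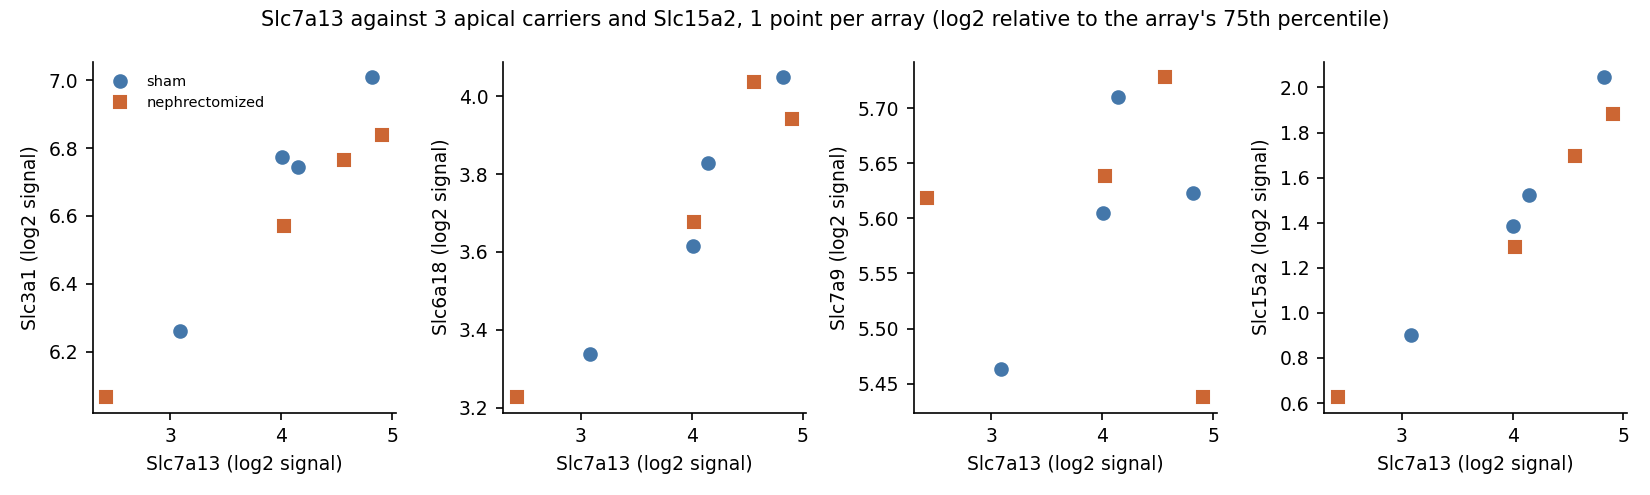
Slc7a13 (x axis) against Slc3a1, Slc6a18, Slc7a9 and Slc15a2 (y axes), all as log2 signal relative to the array's 75th percentile, with 1 point per array. Sham circles and nephrectomized squares mix along rising lines in the panels of Slc3a1, Slc6a18 and Slc15a2, where r is 0.96, 0.96 and 0.98, and scatter for Slc7a9, where r is 0.091.

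Promoters of the carriers were searched for 4 short motifs. RefSeq promoters of build GRCr8 matched 43 of the 56 genes, Slc7a13 not among them, and the 250 bases before the start were read on both strands. The HNF4 letters CAAAGTCCA occur in 0.338% of all 33469 promoters of that length, the HNF1 palindrome (TTAAT, any base, then ATTA) in 0.365%, the HNF1 half-site letters GTTAAT in 6.45%, and the amino acid response letters TGATGNAA in 3.40%. HNF4 and HNF1 are transcription factors of the proximal tubule, and the last motif is read by ATF4. The letters of the half-site can overlap those of the longer HNF1 motif. Shown are 2 carriers that moved together (Slc3a1 at chr6:15394750-15394999, minus strand, and Slc6a18 at chr1:31436403-31436652, plus strand) and Slc7a9 (chr1:97246632-97246881, plus strand), with capitals for the motif letters found.
Slc3a1: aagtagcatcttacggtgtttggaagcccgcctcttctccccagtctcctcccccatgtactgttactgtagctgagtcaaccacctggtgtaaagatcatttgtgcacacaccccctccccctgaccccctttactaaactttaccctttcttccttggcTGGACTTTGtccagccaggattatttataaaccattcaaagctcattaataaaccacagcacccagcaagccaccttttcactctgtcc
Slc6a18: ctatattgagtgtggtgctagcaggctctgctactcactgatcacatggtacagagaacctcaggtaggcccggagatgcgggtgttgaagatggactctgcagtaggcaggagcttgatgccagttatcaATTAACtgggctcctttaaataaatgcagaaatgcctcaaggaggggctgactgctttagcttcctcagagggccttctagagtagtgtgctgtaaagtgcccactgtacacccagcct
Slc7a9: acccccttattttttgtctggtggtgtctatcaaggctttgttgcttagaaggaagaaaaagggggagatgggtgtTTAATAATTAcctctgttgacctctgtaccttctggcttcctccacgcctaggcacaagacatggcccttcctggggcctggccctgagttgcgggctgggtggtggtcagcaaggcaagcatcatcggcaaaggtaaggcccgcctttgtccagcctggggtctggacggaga
The capitals in Slc3a1 are the HNF4 letters on the opposite strand, 89 to 81 bases before the start, and it was the single member promoter with them. The capitals in Slc6a18 are the HNF1 half-site on the opposite strand, 119 to 114 bases before the start, and those in Slc7a9 the longer HNF1 motif, 174 to 165 bases before the start. Of the 43 member promoters, 2 held the half-site letters (Slc6a18 and Slc7a15) and 3 the palindrome (Slc7a9, Slc7a8 and Slc7a15). The response letters were found in 2 member promoters, those of the growth carriers Slc38a1 and Slc1a4. A match describes these letters in this window and shows no binding.

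Basolateral carriers, which pass reabsorbed amino acids to the blood or take up glutamine, had 4 of 4 genes tested, all with positive estimates and none past the threshold. Their median was 0.12, 0.041 on slide 1 and 0.16 on slide 2. Slc38a3 (SNAT3), which brings glutamine into tubule cells for ammonia production, read -0.68, -0.44, -0.98 and -0.19 in sham kidneys and -0.20, 0.18, -0.26 and -0.72 in nephrectomized kidneys. The groups overlapped and its change was 0.32 ± 0.22 (SE, n = 4 per group; limma adjusted p = 0.519), 0.55 on slide 1 and 0.094 on slide 2. The light chains Slc7a8 (LAT2) and Slc7a7 (y+LAT1) were at 0.13 ± 0.089 and 0.11 ± 0.16, and the uniporter Slc43a2 (LAT4) at 0.062 ± 0.083 (SE). Other probes of Slc43a2 gave 0.033 and -0.0042. Slc7a7 was at -0.19 on slide 1 and 0.41 on slide 2.

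Cell growth carriers did not move as a group beside the rise in dividing-cell markers. Of 10 listed genes 5 were tested, with 3 positive and 2 negative estimates and a median of 0.085. That median was -0.12 on slide 1 and 0.20 on slide 2, and 0.016 without sham replicate 3 and 0.14 without sham replicate 1. Slc7a5, Slc7a6 and Slc7a11 were not well above background on any of the 8 arrays, so no level or fold is given for LAT1, y+LAT2 or the cystine exchanger xCT. Slc1a4 (ASCT1) passed background on 2 sham and 1 nephrectomized arrays and was not tested, and Slc7a1 was not analysed here because no probe matched it.

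Slc43a1 (LAT3), an uptake carrier for large neutral amino acids, read -2.87, -3.03, -2.80 and -3.01 in sham kidneys and -3.61, -3.11, -3.39 and -3.10 in nephrectomized kidneys. All 4 nephrectomized values lay below all 4 sham values, and its change was -0.37 ± 0.12 (SE, n = 4 per group; limma adjusted p = 0.189). On the slides it was -0.40 and -0.34, but normexp background correction gave -0.038.

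Slc3a2 (4F2hc), which serves both growth and basolateral light chains, read 4.18, 4.02, 3.85 and 4.03 in sham kidneys and 4.09, 3.87, 4.23 and 4.23 in nephrectomized kidneys. Its values overlapped, and the change of 0.090 ± 0.10 (SE, n = 4 per group; limma adjusted p = 0.720) was -0.12 on slide 1 and 0.30 on slide 2. Slc1a5, a glutamine and serine exchanger, read 3.17, 2.89, 2.96 and 2.77 in sham kidneys and 2.83, 2.84, 2.75 and 2.79 in nephrectomized kidneys. All 4 nephrectomized values lay below 3 of the 4 sham values, at a change of -0.15 ± 0.086 (SE, n = 4 per group; limma adjusted p = 0.447). Slc38a1 and Slc38a2, sodium-coupled glutamine carriers, were at 0.23 ± 0.13 and 0.085 ± 0.12 (SE), and a second probe of Slc38a2 gave -0.11.

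Set against each other, apical and growth carriers did not separate the groups. The mean of the 5 apical genes minus the mean of the 5 growth genes, each relative to the sham mean, was -0.12, 0.068, -0.39 and 0.44 in sham replicates 1 to 4. It was 0.25, 0.17, 0.0026 and -0.62 in nephrectomized replicates 1 to 4. The highest value was in sham replicate 4 and the lowest in nephrectomized replicate 4, where Slc7a13 was also lowest.

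Lysosomal and sensing carriers had small positive estimates in 4 of 4 tested genes, none past the threshold, with a median of 0.12 and 0.056 and 0.16 on the slides. The proton-coupled carrier Slc36a1 (PAT1) was at 0.17 ± 0.080 and its relative Slc36a4 at 0.086 ± 0.12 (SE). Slc38a9, the lysosomal arginine sensor upstream of mTORC1, was at 0.15 ± 0.076 and Slc38a7, a lysosomal glutamine carrier, at 0.069 ± 0.093 (SE). Slc7a14 was not above background on any array.

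Osmolyte, creatine and taurine carriers were the role with the highest median, 0.20, with 4 of 4 estimates positive and none past the threshold, 0.34 on slide 1 and 0.055 on slide 2. Slc6a13 (GAT2), which carries GABA, taurine and betaine, read 2.42, 2.55, 2.28 and 2.42 in sham kidneys and 2.73, 2.60, 2.62 and 2.74 in nephrectomized kidneys. All 4 nephrectomized values exceeded all 4 sham values. Its change was 0.25 ± 0.072 (SE, n = 4 per group; limma adjusted p = 0.137), 0.17 on slide 1 and 0.33 on slide 2.

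The creatine carrier Slc6a8 was at 0.19 ± 0.12 (SE) by its main probe and 0.23 by its second. The taurine carrier Slc6a6 was at 0.21 ± 0.16 (SE), 0.41 on slide 1 and 0.0037 on slide 2. The betaine carrier Slc6a12, well above background on 7 of 8 arrays, was at 0.18 ± 0.12 (SE), 0.42 on slide 1 and -0.053 on slide 2.

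Among neurotransmitter and glial carriers 4 of 12 genes on the array were tested. The GABA carrier Slc6a11 (GAT3) came nearest to the threshold of all members. It read -3.96, -4.11, -3.96 and -3.78 in sham kidneys and -3.66, -3.58, -3.53 and -3.51 in nephrectomized kidneys, without overlap. The change was 0.38 ± 0.079 (SE, n = 4 per group; limma adjusted p = 0.0630), which is 1.30-fold with a 95% interval of 1.15-fold to 1.47-fold. With testing limited to probes above background on all 8 arrays its adjusted p was 0.0488, and over the 20 alternatives it ran from 0.0488 to 0.537. Slc1a3, Slc6a17 and Slc6a4, carriers of glutamate, neutral amino acids and serotonin, were at 0.19 ± 0.096, 0.13 ± 0.10 and -0.077 ± 0.086 (SE).

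**Figure D4:**
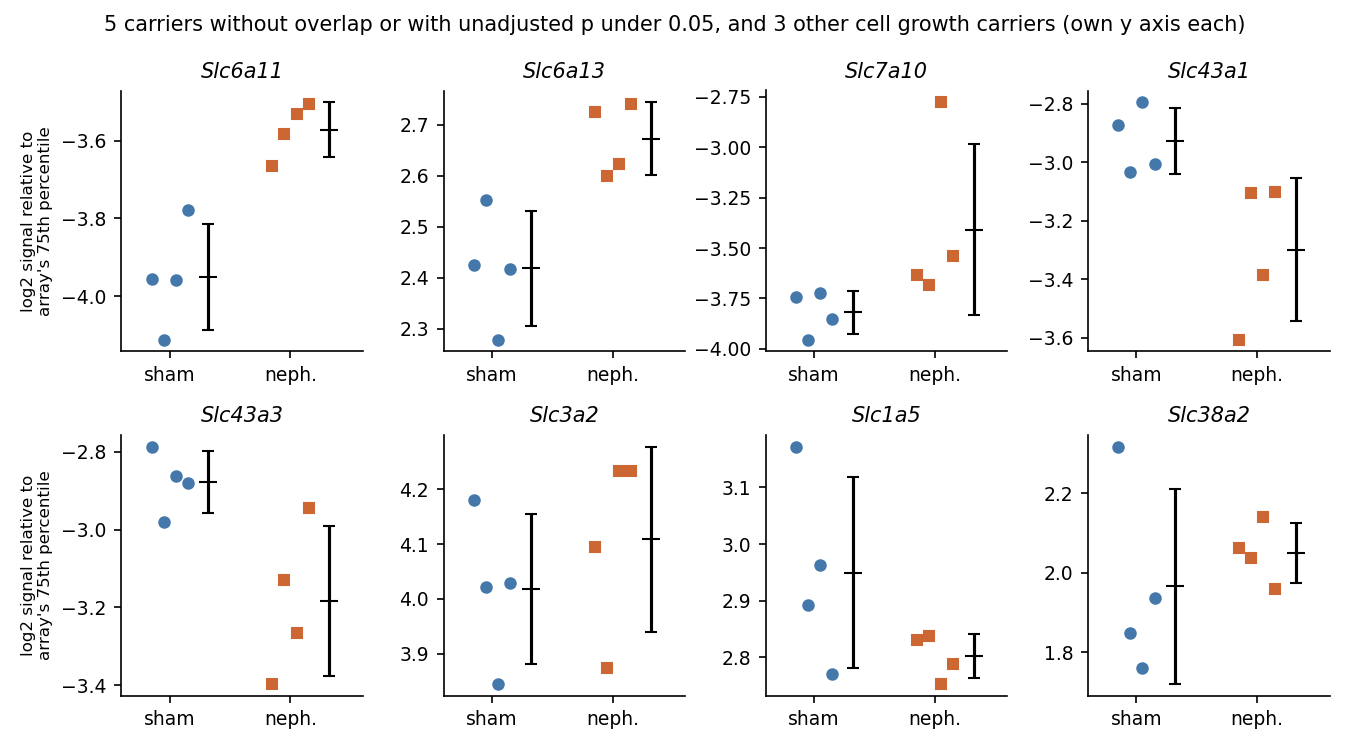
Log2 signal relative to the array's 75th percentile (y axis, own scale per gene) in 4 sham (circles) and 4 nephrectomized (squares) kidneys for 8 carriers, with bars at the mean ± SD. Slc6a11, Slc6a13, Slc7a10 and Slc43a1 have groups that do not overlap, and the growth carriers Slc3a2, Slc1a5 and Slc38a2 overlap.

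Of the 16 members outside these roles 6 were tested. Slc7a10 (Asc-1), a small neutral amino acid exchanger, read -3.74, -3.95, -3.72 and -3.85 in sham kidneys and -3.63, -3.68, -2.78 and -3.54 in nephrectomized kidneys. The groups did not overlap, with 1 high value in nephrectomized replicate 3, and the change was 0.41 ± 0.19 (SE, n = 4 per group; limma adjusted p = 0.344). Without that array it was 0.20. Slc43a3, a nucleobase carrier of the SLC43 family singled out after its values were seen, read -2.79, -2.98, -2.86 and -2.88 in sham kidneys and -3.40, -3.13, -3.27 and -2.94 in nephrectomized kidneys. Its change was -0.31 ± 0.099 (SE, n = 4 per group; limma adjusted p = 0.184), and -0.031 with normexp. Slc7a6os, named for lying opposite Slc7a6 and not itself a carrier, had the smallest standard error of the members, at -0.080 ± 0.055 (SE). The cationic amino acid carrier Slc7a2 and the related Slc7a3l1 and Slc38a6 were at -0.10 ± 0.33, -0.11 ± 0.13 and 0.024 ± 0.081 (SE).

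Of the 24 untested genes, 19 were not well above background on any array. Slc1a4, Slc6a9, Slc6a15 and Slc7a3 were each above background on 1 to 3 arrays. No untested gene was above background on every array of a group.

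Genes that work with these carriers were likewise not called. Of 9 tested partners and peptide or amino acid carriers outside the families 3 estimates were positive and 6 negative, with a median of -0.060. Among them 0 were past the limma threshold and 0 at an unadjusted limma p under 0.05, against 1.04% and 16.0% of all features. Cltrn (collectrin), which the brush border carriers Slc6a18 and Slc6a19 need to reach the membrane, was at -0.060 ± 0.10, and the peptidase Ggt1 at -0.098 ± 0.13 (SE). Of 13 tested genes of the amino acid response, through which a shortage of amino acids acts on transcription, 10 estimates were positive and 3 negative. Their median was 0.058, with 0 past the threshold and 0 at an unadjusted limma p under 0.05, against the same shares of all features. Its transcription factor Atf4 was at 0.014 ± 0.073, and Phgdh, which starts serine synthesis, at 0.11 ± 0.088 (SE).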

How the data were processed

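Total RNA of each right kidney sample was labelled with Cy3 and hybridised to a 1-colour Agilent array, per the labels' protocols. The authors' deposited scanner files (written, per the file headers, by version 10.5.1.1 of Feature Extraction) give an intensity per spot, background-subtracted and detrended within the array, with flags for spots above background, a type of value classed as other. The deposited series table holds log2 values whose making is not given in the sources used here. Against the scanner values they had a slope of 1.00 in each of 8 columns, as log2 values relative to the 75th percentile and centred per probe, with column medians between -0.0145 and 0.0153.

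Here the log2 processed signal minus the array's 75th percentile was used, without control and outlier spots. Probes were named by unversioned RefSeq accession through a GRCr8 gene table, which named 18713 of 41012 probes. A gene was represented by its brightest tested probe. limma 3.58.1 in R 4.3.3 was fitted to all 20935 features without covariates (6 residual and 2.37 prior degrees of freedom). It was checked on simulated arrays. The design text gives 4 per group, but the labels do not tie each replicate to a separate animal, so the p-values reflect sample-to-sample spread, which may be technical, and the number of arrays limits the precision. The members and gene lists were chosen with earlier results of these data known. Named are all tested genes of 5 role lists, other members without overlap and the 2 brightest others; the remaining tested members are given so that each is accounted for. The 20 alternatives changed background correction, normalization, filter, probe choice, variance model and blocks, or left out an array or a slide. Correlations used exact permutation in Python 3.11.15. Not every untested member is reported here by name.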

Additional observations from a re-analysis of the deposited data

Results flagged for a closer look

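Among 27 named genes, 3 values lay far from the other arrays of their group of 4 by Dixon's gap ratio, which chance exceeds in about 1 of 20 groups; 54 groups were examined. Slc7a10 was at -2.78 in nephrectomized replicate 3 against -3.54 for the next highest. Slc6a17 was at 0.25 in nephrectomized replicate 3 against 0.56 for the next lowest. Slc7a6os was at -0.11 in nephrectomized replicate 1 against -0.24 for the next highest.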

How the results depend on the processing

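No member passed under 19 of the 20 alternatives. With testing limited to probes above background on all 8 arrays 1 did, Slc6a11 (limma adjusted p = 0.0488), while features past the threshold rose from 217 to 394. That count was 530 with trend and robust variance, 100 with slide as a block, 20 without a filter, and 0 on slide 1 and 0 on slide 2, where 2 arrays per group were fitted with limma and 1882 and 1742 features had an unadjusted p under 0.05. Leaving out 1 array gave 22 to 197 features and 0 members each time: 52, 22, 33 and 55 without sham replicates 1 to 4, and 197, 51, 35 and 46 without nephrectomized replicates 1 to 4. A replicate block gave 10 features and no member. Same-numbered samples correlated at 0.14, 0.011, -0.057 and -0.21 in their deviations from the group means, and differently numbered ones at -0.21 to 0.24. These correlations cannot tell whether the numbers pair the samples. The growth median was -0.079 without a filter, -0.12 on slide 1 and 0.20 on slide 2, and 0.016 to 0.14 leaving out 1 array, while the apical median was -0.27 to 0.029 leaving out 1 array. The growth median was -0.014 with a gene's probes averaged.

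Of 27 named genes 16 kept their sign under every alternative run. None of the 11 others was past the threshold in any setting. On slide 1 the sign turned for Slc36a4 (-0.019), Slc38a2 (-0.032), Slc38a7 (-0.0070), Slc3a1 (0.044), Slc3a2 (-0.12), Slc7a13 (0.66), Slc7a7 (-0.19) and Slc7a9 (-0.074). On slide 2 it turned for Slc6a12 (-0.053) and Slc6a18 (-0.24). Quantile normalization turned Slc6a18 (-0.012) and Slc7a9 (-0.046), and averaging a gene's probes Slc38a2 (-0.014) and Slc7a6os (0.0095). Leaving out 1 array gave Slc36a4 -0.00029 to 0.16, Slc3a1 -0.28 to 0.029, Slc6a18 -0.11 to 0.18, Slc7a13 -0.35 to 0.48, Slc7a7 -0.0010 to 0.23 and Slc7a9 -0.040 to 0.062. The cause was not tested. Signals near background limit Slc6a11, Slc43a1, Slc43a3 and Slc7a10, among others. Slc6a12 was dimmer than each of these, at a sham mean of -4.30. Sham means of Slc36a1, Slc36a4, Slc38a1 and Slc38a9 were -2.89, -2.81, -2.85 and -2.35, against -2.93 for Slc43a1.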

Other observations

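Genes outside the families whose values were most like those of Slc7a13 over the 8 arrays, ranked among 10240 named features by Pearson r, were Gclc, Cgref1, Osgin1, Hnmt, Ly6i, Arg2, Mme, Cisd1, Ppp1r36 and Slc15a2, in that order. Those described here were picked after the values were seen. Gclc, the catalytic subunit of the first step of glutathione synthesis, had an r of 0.997, and it read 1.80, 1.59, 0.70 and 2.62 in sham and 2.19, 2.61, 1.70 and 0.11 in nephrectomized kidneys. The histamine methyltransferase Hnmt had an r of 0.988, the mitochondrial arginase Arg2 0.985 and the brush border peptidase Mme 0.985. Gclc differed by -0.026 ± 0.57 (SE) between the groups (limma adjusted p = 0.989), and Hnmt by -0.0059 ± 0.77 (SE; adjusted p = 0.998), and both spread widely within the groups. In all, 107 other named features had an r over 0.9 with Slc7a13. All ranks come from the same 8 arrays, and no test was made of them.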
